A study of Homo sapiens with 27 samples.

Results

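A downstream region is the stretch of 10 kb that follows the annotated end of a gene on its own strand, and a read that ends in it can come from a transcript that ran past the gene or, where another gene lies there, from that gene. Where another gene lies within that stretch on the same strand, its exons and 3′ UTR had been taken out of the region before reads were counted, so the region was cut and its Length fell below 10000 bases. The regions described here were those with a Length under 9000 bases and at least 270 reads summed over the 27 libraries, and 533 of the 20266 regions in the table (2.63%) met both conditions. For comparison, 4506 regions had a Length of exactly 10000 bases and at least 270 reads; these are called uncut.

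The libraries came from LNCaP, LNCaP95 and 22Rv1, which are established human prostate cancer cell lines. Each line carried a lentiviral control shRNA (CTRL sh) or an shRNA against CPSF1 (CPSF1 sh1 or CPSF1 sh2), and each of these 9 groups held 3 biological replicates. All groups were pools of infected cells that had been selected in 2 rounds with puromycin, at 2 µg/mL for LNCaP and 22Rv1 and at 1 µg/mL for LNCaP95, and RNA was collected 72 h after seeding. LNCaP95 was grown in phenol red-free medium, so medium and puromycin dose cannot be told apart from the line in any difference that involves it. The 3′ ends of polyadenylated RNA were sequenced with PAC-seq, which primes on the poly(A) tail and so counts the places at which transcripts end. Priming on A-rich sequence within a transcript would be counted as an end too; a filter on such sequence is described for the study's poly(A) site calls, but not for these tables. Windows of 20 bases with at least 13 A began at a median of 12.2 positions per counted kb in cut and 14.2 in uncut regions, and the part of such priming in the counts was not tested.

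CPSF1 belongs to CPSF, the complex that recognises the poly(A) signal, most often AATAAA, a short distance before the site where the nascent transcript is cleaved and given its poly(A) tail. When cleavage fails, RNA polymerase II continues past the gene end, and the transcript may then end in intergenic sequence or in a gene that lies downstream. In a cut region such a read lands beside or inside a neighbouring gene, and it cannot be told apart from a read of that gene's own transcripts that ends in an intron.

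The cut regions were 2442 to 8997 bases long, with a median of 7944. A neighbouring gene of the tables was found for 520 of them, and it began downstream of the region's own gene in 433, at a median distance of 2351 bases, and overlapped the end of that gene in 87. Bases shared by the regions of 2 genes drew no reads in the table: 578 rows with at most 2 bases of their own held 0 reads. After such bases were set aside, 722 to 8997 bases could be counted per cut region (median 7539). More than 50% of those counted bases lay within the span of another same-strand gene, mostly its introns, in 380 regions, called inside here, and the remaining 153 were mainly outside. In a newer annotation, 228 regions had 100 or more counted bases in exons of the neighbour and 88 in exons of a gene of another name. Genes were matched by symbol, so a neighbour or own gene renamed since can be among the 88. The 228 can thus be too few. Exons of the region's own gene, which was found there for 465 regions, took 100 or more bases in 46. Fewer than 100 counted bases were exons of any gene in 212 regions. Chromosome 19 held 73 of the cut regions, 13.7% of them against 6.21% of the uncut regions. Read numbers were like those of uncut regions, with medians of 635 and 645 reads, but per counted kb the medians were 106 and 66 reads.

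The sequence of the counted bases differed between the classes as well. The median G+C content was 49.5% in cut and 43.9% in uncut regions, and AATAAA on the coding strand occurred at a median of 0.523 and 0.9 per kb. AATAAA was found in the first 1000 counted bases of 188 of 529 cut regions with that many bases (35.5%) and of 2080 of 4506 uncut regions (46.2%). These are descriptions of the letters in those windows, not of sites in use.

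An AATAAA of each of 10 regions is given here with the bases on either side. These regions are among those with the largest changes in either direction in all 3 lines and are described further on. The AATAAA shown is the first with 12 counted bases on each side in an unbroken stretch, so an earlier one can exist. Each line gives the gene the region follows, then 30 bases of GRCh37 read 5′ to 3′ on the gene's strand, with AATAAA in capitals. The first 5 regions were higher after knockdown and the last 5 were lower.
N4BP2L2 (chr13:33004161-33004190, minus strand): atggaagataaaAATAAAtgaaattaattc
METTL12 (chr11:62438671-62438700, plus strand): ggttgtttgtaaAATAAAtgttaaagataa
BANF1 (chr11:65772299-65772328, plus strand): ttctttcacagtAATAAAtattttctcctt
CATSPERB (chr14:92043429-92043458, minus strand): gttttttctcttAATAAActtttaaaaatg
SF1 (chr11:64530882-64530911, minus strand): gtgggttttagaAATAAAatcaataaatga
SEC24C (chr10:75537975-75538004, plus strand): agtggctggctaAATAAAagcttagtcaga
INCA1 (chr17:4887241-4887270, minus strand): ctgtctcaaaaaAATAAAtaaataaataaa
PRR11 (chr17:57282683-57282712, plus strand): gttatgttttaaAATAAAgattaataaaag
ROPN1 (chr3:123686587-123686616, minus strand): cccgagtgaaacAATAAAagggactgaaac
RASA4B (chr7:102121639-102121668, minus strand): aaaaaaagggaaAATAAAggagacttgaaa

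CPSF1 itself checked the knockdown. Its 3′ UTR CPM (counts scaled to a common library total, here that of the 3′ UTR table) were 142 ± 22.8 in CTRL sh, 59.7 ± 7.83 in CPSF1 sh1 and 66.2 ± 22.4 in CPSF1 sh2 of LNCaP (mean ± SD, n = 3 each). In LNCaP95 they were 99.2 ± 24.7, 43.2 ± 9.35 and 53.0 ± 11.9, and in 22Rv1 159 ± 36.3, 101 ± 11.8 and 89.0 ± 4.44. The log2 changes were −1.19 for LNCaP, −1.05 for LNCaP95 and −0.73 for 22Rv1, with adjusted p = 8.31e-05, 3.01e-04 and 0.0164 (edgeR quasi-likelihood test, 6 CPSF1 sh against 3 CTRL sh libraries per line, Benjamini-Hochberg over the table). A LNCaP library had 285311 to 683045 reads in the downstream table, a LNCaP95 library 266208 to 507194 and a 22Rv1 library 170330 to 728430. All 10 markers of prostate luminal epithelium averaged above 2 CPM in every line. Of 13 markers of leukocytes, endothelium, fibroblasts, basal and neuroendocrine cells, 4 did so in each line, and their summed level was 22.2 to 79.0 CPM against 3306 to 11177 CPM for the luminal list. In such bulk samples, fewer cells that make a transcript and less of it per cell cannot be told apart.

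Whether transcripts that end in these regions changed with the loss of CPSF1 was asked in each line by comparing the 6 CPSF1 sh with the 3 CTRL sh libraries. The counts of the whole downstream table were fitted with edgeR's quasi-likelihood test and scaled to the reads of that same table, so that a fold change says how a region moved relative to the other downstream regions. Cut regions were called lower more often than higher in every line on this scale, and uncut regions the reverse. In LNCaP, 37 of the 533 cut regions were called higher (6.94%) and 128 lower (24.0%), where the table as a whole had 9.52% of regions called higher and 5.2% lower. In LNCaP95 the counts were 51 higher (9.57%) and 233 lower (43.7%), against 17.6% and 10.1% in the whole table. In 22Rv1 they were 22 higher (4.13%) and 38 lower (7.13%), against 7.26% and 2.73%. The median log2 fold change of the cut regions was −0.56, −0.80 and −0.17 in LNCaP, LNCaP95 and 22Rv1, that of the uncut regions 0.33, 0.58 and 0.27, and that of all regions tested 0.13, 0.22 and 0.19. Uncut regions were called higher in 941, 1574 and 756 cases and lower in 312, 544 and 238, of 4474, 4483 and 4491 tested. Regions of one table are no replicates of a condition, and no test was made between the classes.

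The lower calls depended on that scaling. When the libraries were scaled instead to the reads of all 4 tables together (3′ UTR, coding sequence, intron and downstream) with the normalization factors of the 3′ UTR table, the median of all downstream regions rose to 0.62, 1.11 and 0.73 in LNCaP, LNCaP95 and 22Rv1. The cut regions then had medians of −0.06, 0.12 and 0.36, and LNCaP had 69 higher and 19 lower calls, LNCaP95 119 and 34, and 22Rv1 68 and 4. Higher calls thus made up 22.4%, 18.0% and 36.7% of the calls among cut regions on the first scale and 78.4%, 77.8% and 94.4% on the second. Of all regions tested, 17.3%, 35.6% and 18.8% were called higher on the second scale and 1.05%, 1.62% and 0.397% lower. The cut regions had 12.9%, 22.3% and 12.8% higher and 3.56%, 6.38% and 0.750% lower there. Their share of lower calls thus stayed above that of all regions on both scales, and their share of higher calls below it. The medians of the uncut regions were 0.84, 1.51 and 0.82 on the second scale. On both scales and in all 3 lines the median of the cut regions lay below that of the uncut regions and below that of all regions tested.

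**Figure D1:**
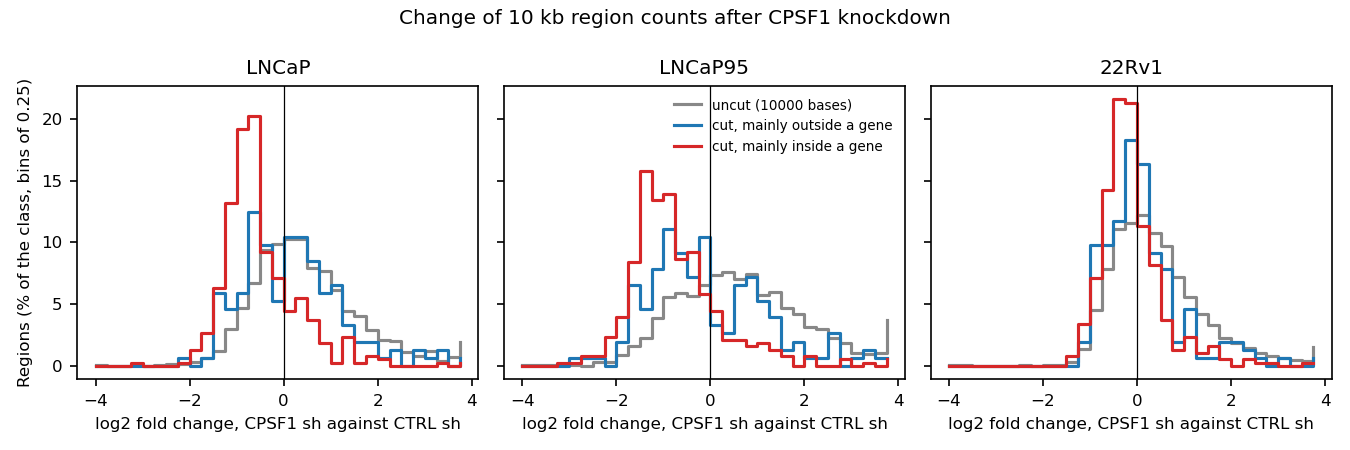
Distribution of the log2 fold change (CPSF1 sh against CTRL sh, scaled within the downstream table) in LNCaP, LNCaP95 and 22Rv1, as shares of each class, for uncut regions (grey), cut regions mainly outside another gene (blue) and cut regions mainly inside one (red); the outermost bins also hold all values beyond them. The medians of the uncut regions were 0.33, 0.58 and 0.27, and those of the inside regions −0.68, −0.91 and −0.23; scaled to all 4 tables, the medians of all cut regions were −0.06, 0.12 and 0.36.

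The calls were also counted by the position of the counted bases. Among the 380 inside regions, LNCaP had 13 higher and 106 lower calls (3.42% and 27.9%), LNCaP95 18 and 192 (4.74% and 50.5%), and 22Rv1 13 and 26 (3.42% and 6.84%), with medians of −0.68, −0.91 and −0.23. Among the 153 outside regions the calls were 24 and 22 for LNCaP (15.7% and 14.4%), 33 and 41 for LNCaP95 (21.6% and 26.8%) and 9 and 12 for 22Rv1 (5.88% and 7.84%), with medians of 0.10, −0.25 and −0.03. At the ends of the range, the 174 regions with more than 95% of their counted bases inside another gene gave LNCaP 4 higher and 50 lower calls, LNCaP95 4 and 91, and 22Rv1 3 and 15, and the 30 with less than 5% inside had 11 and 4, 7 and 9, and 3 and 5. The share of lower calls was thus larger among inside than outside regions in LNCaP and LNCaP95, but not in 22Rv1, where it was 8.62% and 16.7% at the ends of the range. In the uncut class, the 119 regions that lay mainly inside a same-strand gene had medians of −0.05, 0.22 and 0.03, below those of all uncut regions but above those of the inside cut regions. Regions only slightly cut, of Length 9000 or more but under 10000, took a middle place, with medians of −0.29, −0.32 and −0.09 over 774 regions.

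Each shRNA was also compared alone with the same 3 controls. With CPSF1 sh1 alone, LNCaP had 33 higher and 93 lower regions, LNCaP95 23 and 149, and 22Rv1 9 and 11. With CPSF1 sh2 alone, the counts were 30 and 133, 50 and 213, and 31 and 37. The shares of all regions called with each shRNA alone are not given, and those of the fits with both shRNAs do not apply to fewer libraries. The counts for each shRNA alone therefore do not set cut regions apart. Over the lines, 342 regions were called in at least 1 line and 191 in none, 10 were higher in all 3 (1.88%, against 3.54% of all regions tested in the 3 lines and 8.61% of uncut ones) and 15 were lower in all 3 (2.81%, against 0.771% and 1.46%). Opposite calls in 2 lines were made for 3 regions, those after LPCAT3, MED29 and HIST1H2BC.

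METTL12, a mitochondrial methyltransferase, is followed within 1777 bases by C11orf83, and its region was among the 10 that were higher in all lines. The region (chr11:62436268-62446267, plus strand) held 24, 19 and 28 reads in CTRL sh, 520, 471 and 1029 in CPSF1 sh1, and 817, 524 and 978 in CPSF1 sh2 of LNCaP. LNCaP95 had 19, 18 and 28 reads in CTRL sh, 48, 98 and 62 in CPSF1 sh1, and 46, 100 and 83 in CPSF1 sh2, and 22Rv1 had 12, 12 and 31, then 277, 234 and 365, and 569, 446 and 491. Knockdown and control libraries did not overlap in reads in any line, nor in CPM but for LNCaP95, where the highest control (102 CPM) touched the lowest knockdown library (101 CPM), and the size of the change did differ: LNCaP had a log2 fold change of 4.49 ± 0.25 (SE), LNCaP95 one of 0.87 ± 0.32 and 22Rv1 one of 3.06 ± 0.25, and the LNCaP95 call was lost without any of 5 of its libraries (adjusted p between 0.0590 and 0.119 by edgeR). The 3′ UTR of METTL12 also rose, by 1.89 in LNCaP and 1.92 in 22Rv1. The 3′ UTR of C11orf83 had log2 fold changes of −0.49, −0.08 and −0.39, of which the first was called lower by edgeR (adjusted p = 0.0435). The introns of C11orf83 rose by 5.54, 1.92 and 3.42 in LNCaP, LNCaP95 and 22Rv1, all called higher. Of the region's 2499 counted bases, 1022 lie within another same-strand gene, so these introns can hold the same reads.

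SF1, which binds the branch point of introns, is followed by PYGM, the muscle form of glycogen phosphorylase, whose gene begins 4009 bases downstream. Its region held 7, 5 and 3 reads in CTRL sh of LNCaP, 23, 24 and 19 in CPSF1 sh1, and 37, 17 and 36 in CPSF1 sh2. It held 2, 5 and 13 in CTRL sh of LNCaP95, 56, 34 and 64 in CPSF1 sh1, and 50, 71 and 70 in CPSF1 sh2. The groups did not overlap in either line, nor in 22Rv1, where controls held 1 to 6 reads and knockdown libraries 15 to 45. The log2 fold changes were 1.97 ± 0.46, 2.24 ± 0.41 and 1.96 ± 0.52 in LNCaP, LNCaP95 and 22Rv1, and the call in 22Rv1 was lost without CTRL sh replicate 3 (adjusted p = 0.118 by edgeR). PYGM, a gene of muscle, held 1 read in all 9 control libraries at its 3′ UTR, while LNCaP knockdown libraries held 3 to 16, those of LNCaP95 10 to 34 and those of 22Rv1 0 to 9. The introns of PYGM rose by 3.46, 3.08 and 2.57 in LNCaP, LNCaP95 and 22Rv1, all called higher, and can hold the same reads as the region.

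Large rises in all 3 lines were also found after BANF1, N4BP2L2 and CATSPERB. BANF1, which binds DNA at the nuclear envelope, is followed by CST6, a secreted protease inhibitor, 7392 bases downstream, and most of its counted bases lie before that gene. LNCaP controls held 3 to 6 reads there, those of LNCaP95 2 to 5 and those of 22Rv1 1 to 11, against 15 to 41, 38 to 97 and 9 to 61 after knockdown; the groups overlapped in 22Rv1, where its call was lost without CTRL sh replicate 2 (adjusted p = 0.0635 by edgeR). N4BP2L2 precedes the related gene N4BP2L1, and held 3 reads in the 3 control libraries of LNCaP together against 97 in the 6 knockdown libraries, a ratio of 12.1 per library size with an exact 95% counting interval of 4.005 to 59.5. The introns of N4BP2L1, which can hold the same reads, rose by 3.03, 3.65 and 2.36 in LNCaP, LNCaP95 and 22Rv1, all called higher. CATSPERB, a subunit of a calcium channel of sperm, had 3 against 102 reads in LNCaP, a ratio of 12.7 (4.22 to 62.5). Its calls in LNCaP95 and 22Rv1, with log2 fold changes of 1.46 and 1.80, were each lost without any of several single libraries, and that of N4BP2L2 in 22Rv1 was lost without CTRL sh replicate 2. All 15 calls of these 5 regions were kept when libraries were scaled to the 4 tables together. The read minimum was summed over control and knockdown libraries, and each line had more knockdown libraries. A region with few control reads, such as that after N4BP2L2 or CATSPERB, could thus meet the minimum mainly through its knockdown reads. Both were also chosen by their fold change, and their counting intervals allow for neither choice.

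SEC24C, a cargo-binding subunit of the COPII coat, had the largest mean fall of the 15 regions that were lower in all lines. Its neighbour FUT11, a fucosyltransferase-family gene, overlaps the annotated end of SEC24C, and the region is among the shortest, with 4706 bases. It held 162, 209 and 153 reads in CTRL sh, 77, 82 and 139 in CPSF1 sh1, and 98, 49 and 119 in CPSF1 sh2 of LNCaP. In LNCaP95 it held 650, 523 and 667 in CTRL sh, 258, 129 and 227 in CPSF1 sh1, and 95, 205 and 134 in CPSF1 sh2. The CPM of this region separated knockdown from control libraries in all 3 lines, with 431 to 535 against 163 to 234 in LNCaP, 2221 to 2424 against 208 to 605 in LNCaP95, and 219 to 232 against 76.1 to 146 in 22Rv1. The log2 fold changes were −1.32 ± 0.20, −2.65 ± 0.23 and −1.10 ± 0.24, with adjusted p = 2.90e-08, 7.85e-17 and 3.43e-04 by edgeR; scaled to all 4 tables they were −0.81, −1.79 and −0.58, of which the last was no longer called. The 3′ UTR of SEC24C rose in LNCaP, by 0.83 (adjusted p = 0.0012 by edgeR), and had values of 0.28 and 0.26 in LNCaP95 and 22Rv1. The ratio of downstream to own 3′ UTR counts, fitted as an interaction, fell by 2.15, 3.00 and 1.45 on the log2 scale, and the introns of FUT11 fell by 0.66, 1.56 and 0.58. Of the region's 3084 counted bases, 2785 lie within another same-strand gene, so the introns of FUT11 can hold the same reads. The 3′ UTR of FUT11 had −0.08 in LNCaP, not called, and −1.22 in LNCaP95, called lower (adjusted p = 0.0150 by edgeR).

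PRR11, linked to cell cycle progression, had 9761 reads in its region, which lies wholly within 2 same-strand neighbours, CTD-2510F5.6 and SMG8; in a newer annotation 1705 of its bases are exons of PRR11 itself. Its log2 fold changes were −1.13 ± 0.18, −1.78 ± 0.23 and −0.87 ± 0.18, and the 3′ UTR of PRR11 fell as well in LNCaP and LNCaP95, by 0.65 and 1.17. RASA4B, one of several near-identical copies of a Ras GTPase-activating protein gene, so that its counts are uncertain, lies before POLR2J, a subunit of RNA polymerase II. Its region had log2 fold changes of −1.45 ± 0.25, −1.18 ± 0.29 and −0.94 ± 0.16, and 2170 of its bases are exons of RASA4B in the newer annotation. ROPN1, a protein of the sperm tail, is followed by CCDC14 and had log2 fold changes of −1.58 ± 0.22, −1.43 ± 0.25 and −0.59 ± 0.18, of which the last was no longer called without 22Rv1 CPSF1 sh2 replicate 1, CTRL sh replicate 2 or CTRL sh replicate 3 (adjusted p = 0.0608, 0.146 and 0.197 by edgeR), while the 3′ UTR of CCDC14 had −0.33, 0.21 and −0.06, none called. INCA1 had −1.43 ± 0.46, −1.36 ± 0.41 and −1.02 ± 0.31, and the last of these became 0.027 without CTRL sh replicate 3 of 22Rv1, which held 67 reads against 10 and 11 in the other controls. The call for INCA1 was also lost in LNCaP without CTRL sh replicate 3 (−1.20, adjusted p = 0.172 by edgeR) and in LNCaP95 without CTRL sh replicate 1 (−1.18, adjusted p = 0.0602), so that none of the 3 was kept without a single control. Of the 15 calls of these 5 lower regions, 7 were kept on the scale of the 4 tables: those of SEC24C and PRR11 in LNCaP and LNCaP95, of ROPN1 in LNCaP, and of RASA4B in LNCaP and 22Rv1.

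**Figure D2:**
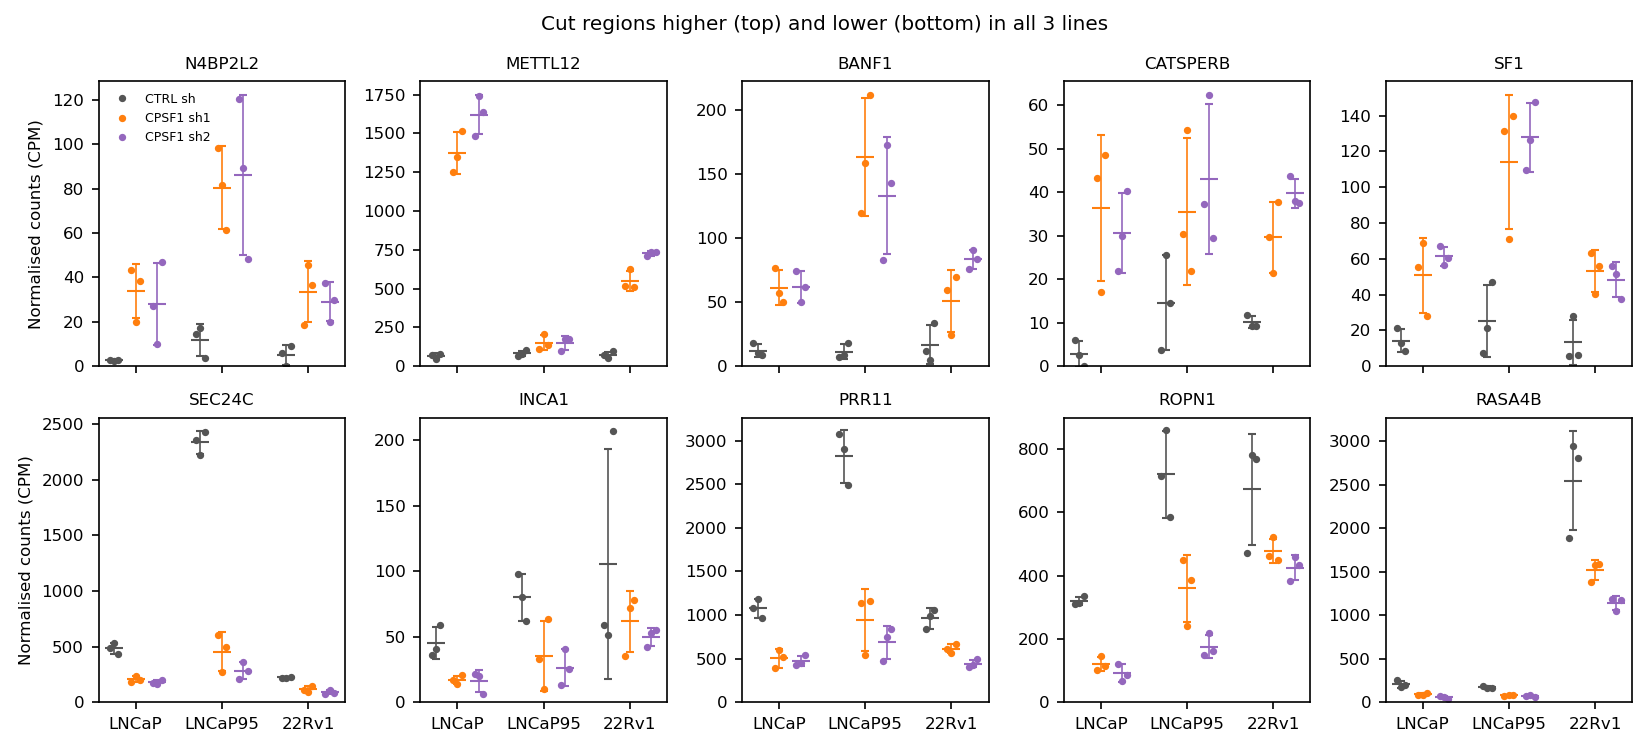
CPM of the downstream table in each of the 27 libraries for 5 cut regions with large mean rises (upper panels) and 5 with large mean falls (lower panels) among those called in the same direction in all 3 lines, with the mean and SD of each group of 3 as bars and a scale of its own in each panel. METTL12 held 19 to 28 reads in the LNCaP controls and 471 to 1029 after knockdown; SEC24C in LNCaP95 went from 2221 to 2424 CPM in controls to 208 to 605 CPM, and on the scale of all 4 tables the falls of the lower panels were kept in 7 of 15 cases.

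The genes that follow were related to the regions next. The 3′ UTR of the neighbouring gene was tested for 412 regions in LNCaP, 425 in LNCaP95 and 427 in 22Rv1, and the median log2 fold change was −0.06, −0.04 and 0.01. LNCaP had 34 such 3′ UTRs called higher and 41 lower, LNCaP95 57 and 74, and 22Rv1 4 and 3, where the whole 3′ UTR table had 8.24% and 10.1%, 15.2% and 15.2%, and 0.678% and 0.791%. These values are scaled within the 3′ UTR table, and so cannot be set against the medians of the regions, which are scaled within the downstream table. Where the region was lower and the neighbour's 3′ UTR was tested, that 3′ UTR was lower for 11, higher for 4 and not called for 96 of 111 in LNCaP, and lower for 44, higher for 12 and not called for 145 of 201 in LNCaP95. In 22Rv1 edgeR called 0 of 30 such neighbours, with 3 lower and 0 higher at an unadjusted p under 0.05, and DESeq2 called 0.

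Across regions, the log2 fold change of a region and that of the neighbour's introns had a Pearson r of 0.75 (Spearman rho 0.74, n = 394) in LNCaP, 0.73 (0.71, n = 402) in LNCaP95 and 0.78 (0.77, n = 395) in 22Rv1. Many of these values share reads, because a base of an inside region can also belong to the neighbour's intron: of 126 regions that lay wholly inside 1 neighbour with an intron row, 100 held no more reads than that row in any of the 27 libraries, at a median of 89.7% of its reads. Of the other 26, the intron row of the neighbour held 0 reads for 21, those after PAN2 and NOTCH2NL among them, and fewer reads than the region in at least 1 library for 5. For the outside regions, which overlap the neighbour less, r was 0.62, 0.60 and 0.68. Against the neighbour's 3′ UTR, which shares no bases with the region but the same libraries, r was 0.35 (rho 0.20, n = 412), 0.39 (0.23, n = 425) and 0.12 (0.13, n = 427). Against the 3′ UTR of the region's own gene it was 0.04 (0.08, n = 416), −0.01 (−0.01, n = 424) and 0.08 (0.03, n = 425). In outside regions alone, r with the own 3′ UTR was 0.37, 0.16 and 0.24 (n = 128, 130 and 130). With the neighbour's 3′ UTR it was 0.21, 0.29 and −0.15 there (n = 106, 108 and 113). The rho values in outside regions were 0.23, 0.17 and 0.18 for the own and 0.13, 0.20 and 0.05 for the neighbour's 3′ UTR. In inside regions r was −0.05, −0.05 and 0.01 with the own 3′ UTR and 0.44, 0.43 and 0.23 with the neighbour's. These correlations are across regions, which are not independent replicates.

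**Figure D3:**
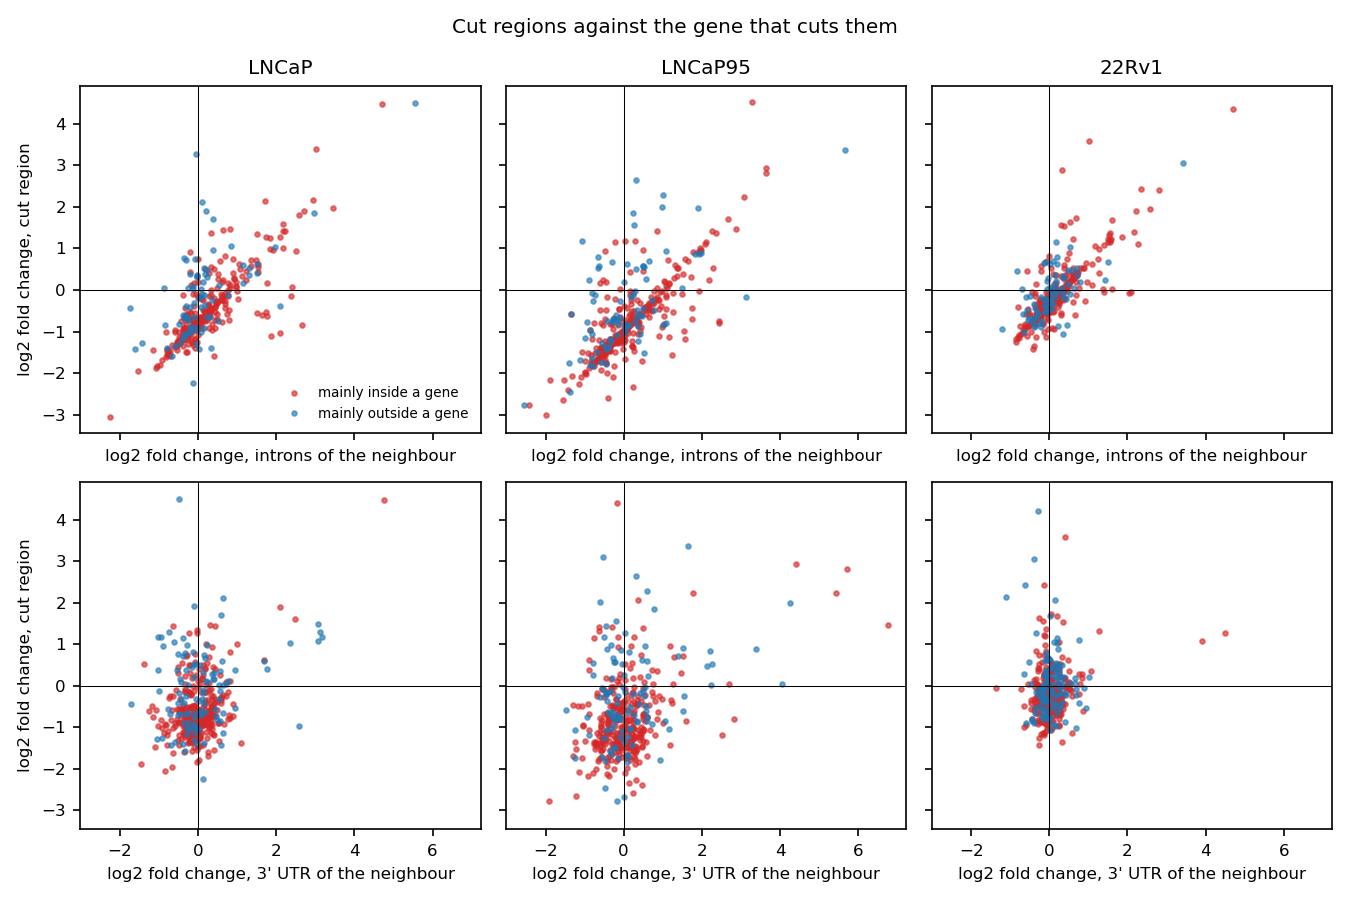
Log2 fold change of each cut region (vertical axis) against that of the introns (upper panels) and the 3′ UTR (lower panels) of its neighbouring gene, 1 point per region, for LNCaP, LNCaP95 and 22Rv1. Points follow the diagonal with the introns, many of which share reads with the region (Pearson r 0.75, 0.73 and 0.78), and scatter widely with the 3′ UTR (0.35, 0.39 and 0.12).

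The calls moved with the number of reads at the neighbour's 3′ UTR, but in 22Rv1 the share of lower calls did not rise at each step. Where the 3′ UTR of the neighbour held under 1000 reads over the 27 libraries (148 regions), LNCaP had 17.6% of the regions lower, LNCaP95 31.1% and 22Rv1 7.43%. With 1000 to 10000 reads (255 regions) the shares were 23.5%, 43.5% and 4.71%, and with more (117 regions) 33.3%, 62.4% and 11.97%. Higher calls went the other way, with 14.9%, 4.71% and 2.56% for LNCaP, 19.6%, 6.67% and 3.42% for LNCaP95, and 10.8%, 1.96% and 0.855% for 22Rv1. The medians went from 0.03 through −0.65 to −0.70 in LNCaP, from −0.31 through −0.81 to −1.06 in LNCaP95, and from 0.02 through −0.18 to −0.36 in 22Rv1. Grouped by the 3′ UTR reads of the region's own gene in the same way (149, 254 and 118 regions), the medians had the opposite order, with −0.70, −0.58 and −0.25 for LNCaP, −1.13, −0.72 and −0.50 for LNCaP95, and −0.25, −0.18 and −0.035 for 22Rv1. The shares called lower did so for LNCaP (28.9%, 24.8% and 16.9%) and LNCaP95 (59.1%, 40.9% and 30.5%), but were 4.70%, 8.27% and 6.78% for 22Rv1. In control libraries the level of the region followed that of the neighbour's 3′ UTR with a rho of 0.28, 0.24 and 0.23 (n = 520) and that of its own gene's 3′ UTR with a rho of 0.02, −0.02 and 0.09 (n = 521). Over all libraries a region held a median of 22.7% as many reads as the 3′ UTR of its neighbour, and more reads than it in 141 of 520 cases.

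When each region was set against the 3′ UTR of its own gene, 31 of 416 cut regions had a higher and 40 a lower ratio in LNCaP, where 8.39% and 1.95% of all genes tested did. In LNCaP95 45 of 424 were higher and 122 lower (21.2% and 6.82% of all genes), and in 22Rv1 14 of 425 were higher and 13 lower (6.65% and 0.803%). The median log2 change of the ratio was −0.33, −0.47 and −0.16 in cut regions and 0.45, 0.72 and 0.40 in uncut regions. Scaled to all 4 tables, the calls were 54 and 9 for LNCaP, 114 and 24 for LNCaP95, and 65 and 3 for 22Rv1. The shares over all genes on that scale are not given, so these counts alone do not set cut regions apart.

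Differences between the lines were tested as such. The knockdown effect differed between LNCaP95 and LNCaP in 19 cut regions (3.56%, against 2.48% of all regions tested), 5 with the larger value in LNCaP95. It differed between 22Rv1 and LNCaP in 16 (3.00%, against 1%), and between 22Rv1 and LNCaP95 in 51 (9.57%, against 4.15%), 46 of them with the larger value in 22Rv1. Uncut regions, which met the same read minimum, had shares of 5.55%, 2.13% and 8.92% for these pairs in the same order. On that comparison cut regions lay below uncut ones for LNCaP95 and LNCaP and little above them for the other pairs. The median difference of the cut regions was −0.23, 0.33 and 0.55 for the 3 pairs. HCFC1, a transcriptional co-regulator whose region lies largely in RENBP, held 0, 0 and 2 reads in CTRL sh of LNCaP95 and 16 to 43 after knockdown, while LNCaP had 3 to 8 and 2 to 18 and 22Rv1 11 to 37 and 29 to 52. ARPC2, of the complex that branches actin filaments, is followed by GPBAR1, a bile acid receptor, and held 0, 0 and 1 reads in CTRL sh of LNCaP95 against 5 to 24 after knockdown, but 7 to 14 against 8 to 25 in 22Rv1. PRUNE, before BNIPL, held 1, 0 and 0 control reads in 22Rv1 against 12 to 31, and 20 to 32 against 18 to 41 in LNCaP95. In LNCaP the region of ARPC2 held 1 to 2 control reads and 8 to 19 after knockdown, and that of PRUNE 4 to 14 and 3 to 10. For these 3 regions, groups overlapped in reads and in CPM in the lines whose controls held more than 2 reads in a library, and did not where they held 2 or fewer.

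A few regions carried many of the reads. The region after RNF141, a ring finger protein, held 33.0% of all reads in cut regions (351234 of 1062903). Its neighbour is MTRNR2L8, a nuclear gene that resembles mitochondrial ribosomal RNA, and 1161 of the 2203 counted bases of the region matched bases 521 to 1683 of the mitochondrial genome at 95.5% identity, so reads of either source may be counted here; how many came from each was not tested. It had 33814 to 42600 CPM in CTRL sh of LNCaP and 35754 to 45293 after knockdown, which overlap, but 36118 to 47816 against 14407 to 20859 in LNCaP95 and 32719 to 39592 against 19070.4 to 26845 in 22Rv1, which do not. The log2 fold changes were 0.10 ± 0.20, −1.27 ± 0.21 and −0.67 ± 0.14, with the last of them no longer called on the scale of the 4 tables, where LNCaP rose by 0.61. Among the other regions with most reads, that after HIST1H2BF, a gene of the main histone cluster that lies before HIST1H4E, was lower in every line, with log2 fold changes of −0.55 ± 0.19, −1.12 ± 0.22 and −0.83 ± 0.16, and all 6 knockdown libraries of each line lay below its controls in CPM; none of these 3 calls was kept on the scale of the 4 tables. PAN2, the catalytic subunit of a deadenylase that shortens poly(A) tails, had −0.84 ± 0.17, −1.26 ± 0.22 and −0.17 ± 0.17 in a region inside CNPY2, the last not called. NOTCH2NL, one of several near-identical copies, so that its counts are uncertain, had −0.93 ± 0.18, −1.17 ± 0.22 and −0.34 ± 0.17, and ZBTB7A, a transcriptional repressor, had −0.56 ± 0.18, −0.23 ± 0.23 and −0.54 ± 0.16, of which the second was not called and became 0.69 on the scale of the 4 tables. In the newer annotation 762 of the 909 counted bases of the ZBTB7A region are exons of ZBTB7A itself.

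The region after RPS2, a protein of the small ribosomal subunit, stood apart. Of its 86490 reads, 41133 were in LNCaP CTRL sh replicate 2 and 45167 in LNCaP CPSF1 sh2 replicate 2, together 99.8%. The other 25 libraries held 1 to 17 reads each, 190 in all, which is below the minimum of 270. In the same 2 libraries the 3′ UTR of RPS2 held 62029 and 6904 reads, where the other LNCaP controls held 92647 and 93492 and the other CPSF1 sh2 replicates 65062 and 94004. The sums of 3′ UTR and downstream reads, 103162 and 52071, lay within the range of the other LNCaP libraries (43683 to 107673). No other cut region had more than 50% of its reads in 1 library, the next being CD4 with 23.5%. The fitted log2 fold changes of the RPS2 region (−0.49, −0.84 and −0.80) were not called, and that in LNCaP became 10.72 without CTRL sh replicate 2.

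**Figure D4:**
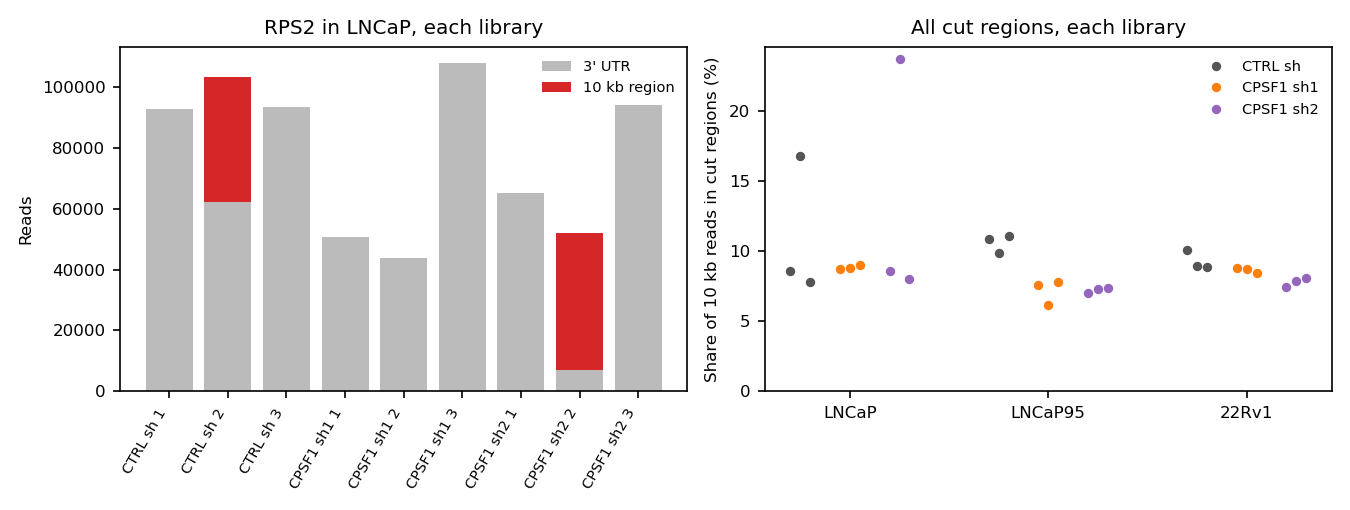
Left, reads at the 3′ UTR and in the downstream region of RPS2 in the 9 LNCaP libraries, as stacked bars; the downstream region held 41133 and 45167 reads in 2 libraries and 2 to 13 in the others. Right, the share of downstream reads that fell in cut regions in each of the 27 libraries, 9.87% to 11.1% in CTRL sh against 6.14% to 7.79% in CPSF1 sh of LNCaP95.

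As a share of all downstream reads, cut regions took 10.6% ± 0.651 (SD, n = 3) in CTRL sh and 7.20% ± 0.578 (n = 6) in CPSF1 sh of LNCaP95, 9.30% ± 0.653 and 8.22% ± 0.517 in 22Rv1, and 11.1% ± 5.001 and 11.1% ± 6.15 in LNCaP, where the spread came from the 2 libraries with RPS2 reads. Control and knockdown libraries did not overlap in LNCaP95 and 22Rv1. Without the regions of RNF141 and RPS2, LNCaP had shares of 5.02% ± 0.214 and 4.60% ± 0.310, LNCaP95 of 7.15% ± 0.274 and 5.35% ± 0.367, and 22Rv1 of 6.29% ± 0.635 and 5.94% ± 0.283, and the groups were then apart only in LNCaP95. As a share of the reads of all 4 tables, cut regions took 0.385% ± 0.0373 and 0.432% ± 0.0538 in LNCaP95 and 0.434% ± 0.0534 and 0.481% ± 0.0175 in 22Rv1, so the direction turned on that denominator, by less than the larger of the 2 SDs in either line.

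Cut regions were also counted by the kind of gene they follow. With 1 to 12 regions a list, these counts stand beside 6.94% higher and 24.0% lower calls over all cut regions for LNCaP, 9.57% and 43.7% for LNCaP95, and 4.13% and 7.13% for 22Rv1, where all regions of the table had 9.52% and 5.2%, 17.6% and 10.1%, and 7.26% and 2.73%. Of 102 ribosomal protein genes, 8 were followed by a cut region, and LNCaP had 2 of them higher and 2 lower, LNCaP95 2 and 1, and 22Rv1 1 and 0 (DESeq2 called 2 lower there, and edgeR's unadjusted p was under 0.05 for 2). Those after RPL18 (log2 fold changes 2.17, 1.71 and 1.17, the last not called) and RPS19 (1.17, 1.27 and 2.00) were the higher ones, and RPL10 was lower in LNCaP and LNCaP95 (−1.23 and −1.41). RPL4, with 3224 reads before SNAPC5, had 0.57, −0.02 and −0.48, none called. Of 508 ZNF genes, 12 were followed by one, and the calls were 0 higher and 1 lower for LNCaP, 0 and 2 for LNCaP95, and 1 and 2 for 22Rv1; at an unadjusted p under 0.05 edgeR had 0 higher in LNCaP and 1 in LNCaP95, and DESeq2 called 0 higher in either. The region after ZNF263 was lower in LNCaP and 22Rv1 (−0.84 and −0.55). The 3 histone gene regions were all lower in LNCaP95, and that of HIST1H2BC was higher in LNCaP (1.03 against −1.45).

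Solute carrier genes had 8 cut regions, with 0 higher and 6 lower in LNCaP95, 1 higher and 0 lower in 22Rv1, and 0 called in LNCaP by edgeR or DESeq2, where 2 were lower at an unadjusted p under 0.05 in edgeR. SLC39A4, a zinc importer, has CPSF1 itself as its downstream neighbour, and its region had log2 fold changes of −0.48 ± 0.30, −0.98 ± 0.35 and −0.07 ± 0.25, of which the second was called (adjusted p = 0.0248 by edgeR). Of its 8521 counted bases, 8448 lie within another same-strand gene, so its reads can be ends within the targeted gene. The introns of CPSF1 had 0.31, 0.05 and 0.24, none called. Oxidative phosphorylation genes had 4, with NDUFB10 lower in LNCaP95 and 22Rv1 (−1.63 and −1.10, against −0.12 in LNCaP) and NDUFA7 lower in LNCaP95 (−0.98). Of the glycolysis genes only ALDOC had one, with −0.70, −2.13 and −0.91, all but the first called. The polyadenylation factors had 1, after NUDT21, with −0.39, −0.81 and 1.23, none called. HOX genes had 2 and the protocadherin, ALDH and S100 families 1 each, with HOXC13 (−1.27) and S100A1 (−1.80) lower in LNCaP and ALDH3B1 lower in LNCaP95 (−0.82). The other 10 lists (KLK, UGT, metallothionein, keratin, AKR, HLA, CXCL, GST, CYP and androgen-regulated genes) held no cut region.

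At the limits of the rule, BDH2 and ZFPL1 (Length 8997 each) were just inside, with log2 fold changes of −0.56, 0.34 and −0.24 and of −0.55, −0.38 and −0.51, and ZNF224 (9000) and C1QTNF9B (9001) just outside, with −0.50, −0.88 and −0.82 and with −0.59, −1.40 and −0.88. LSR with 270 reads had −1.14, −1.24 and −0.93, and PIGW with 271 had −0.62, −0.69 and 0.23, while SOS2 with 266 had −0.53, −1.12 and −0.52 and CCDC116 with 265 had −0.67, 0.75 and 0.13. For 38 of the 533 regions the sum fell below 270 without their highest library.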

How the data were processed

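PAC-seq libraries of LNCaP, LNCaP95 and 22Rv1 (27 in all) had been trimmed of poly(A) with DPAC by the authors, aligned to hg19 with HISAT2 2.1.0 and counted by strand with featureCounts (Subread 2.0.3). The tables were deposited as raw read counts per gene for the 3′ UTR, coding sequence, intron and 10 kb downstream region, with no normalization. Each table was tested in each line with edgeR 4.0.16 (R 4.3.3): TMM factors, features with a mean CPM above 2 over the 9 libraries of a line, quasi-likelihood F-tests of 6 CPSF1 sh against 3 CTRL sh libraries, and Benjamini-Hochberg adjustment over all features tested, at a threshold of 0.05. An SE is the absolute log2 fold change over the square root of F. The ratio of downstream to 3′ UTR counts was tested as an interaction within libraries, and differences between lines as interactions over all 27 libraries. The coding sequence table gave library totals and exon positions only.

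The authors had built the regions from an Ensembl annotation of GRCh37. Positions, gene spans and neighbours were taken from the intervals that the deposited tables list for each gene, where 13 of the cut regions had no neighbour. Sequences were read from GRCh37 at those intervals, and the newer annotation was a GENCODE release mapped to GRCh37. Members, lists and the rule for named genes were chosen with earlier results of these data known. Named were the 6 cut regions with most reads, the 6 highest and 6 lowest by mean log2 fold change among those called in the same direction in all 3 lines and of the same sign with both shRNAs, the 2 with the largest line difference for each pair of lines, the 3 with most reads per list, and those nearest the limits of the rule. Of these, 2 regions are not reported here. Other regions were named after their values were seen. Counting intervals are exact and cover counting error only. Alternatives were DESeq2 1.42.0, other scalings, filters and limits, each shRNA alone, a replicate block, and leaving out each library. The code was tested on simulated data. The labels name the replicates biological without saying how separate the cultures were, so p-values measure the spread between these libraries.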

Additional observations from a re-analysis of the deposited data

Results flagged for a closer look

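The knockdown effect of 5 cut regions differed most between lines by edgeR's line-by-knockdown interaction over all 27 libraries, and the differences are given as values of the log2 scale. Groups of 3 libraries were not tested for single libraries that stand apart. The region after HCFC1, largely inside RENBP, had a difference of 4.38 for LNCaP95 minus LNCaP (adjusted p = 0.00282 by edgeR), which was 3.82 without LNCaP CTRL sh replicate 1 (adjusted p = 0.0539). Its LNCaP95 reads, 2 in 3 control and 189 in 6 knockdown libraries, had a ratio of 26.03 per library size, with an exact 95% counting interval of 7.11 to 216. The region after VHLL, which lies before C1orf85, had a difference of 3.83 for the same pair of lines (adjusted p = 6.69e-06 by edgeR). It held 14, 52 and 42 reads in CTRL sh of LNCaP and 13 to 46 after knockdown, 2, 3 and 4 against 20 to 106 for LNCaP95, and 3, 3 and 2 against 10 to 54 for 22Rv1.

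The region after PRUNE had a difference of 4.96 for 22Rv1 minus LNCaP (adjusted p = 0.00455 by edgeR), which was 4.23 without 22Rv1 CTRL sh replicate 3 and 4.18 without LNCaP CTRL sh replicate 3 (adjusted p = 0.0677 and 0.0867). For 22Rv1 minus LNCaP95 its difference was 5.14 (adjusted p = 1.82e-04), and the 22Rv1 reads, 1 in controls against 125, had a ratio of 23.9 (4.21 to 951). The region after ARPC2 had a difference of −4.95 for 22Rv1 minus LNCaP95 (adjusted p = 7.49e-04 by edgeR), and its LNCaP95 reads, 1 in controls against 104, a ratio of 28.6 (5.03 to 1142). The read minimum for cut regions included knockdown reads, so regions with few control reads could meet it mainly through those. The regions after HCFC1, PRUNE and ARPC2 were also chosen by the size of their line difference, and the counting intervals allow for neither choice.

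The region after CD4, a receptor of helper T cells, lies before GPR162 and had a difference of 4.33 for 22Rv1 minus LNCaP (adjusted p = 0.0134 by edgeR). It was 0.28 without LNCaP CTRL sh replicate 1 (adjusted p = 0.993), 2.69 without 22Rv1 CPSF1 sh2 replicate 2 (0.260) and 3.96 without 22Rv1 CTRL sh replicate 2 (0.0781). Reads of the CD4 region lay mostly in single libraries, with 70, 1 and 2 in CTRL sh of LNCaP and 8, 83 and 7 in CPSF1 sh2 of 22Rv1.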

How the results depend on the processing

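Counts below are cut regions called higher and lower, for LNCaP, LNCaP95 and 22Rv1 in that order, and settings or values not listed stayed within 1.5 times of the count reported. Where a value moved, the cause was not tested, except that stricter limits leave fewer regions. Scaled to the reads of all 4 tables, the downstream calls were 69 and 19, 119 and 34, and 68 and 4, the ratio calls 54 and 9, 114 and 24, and 65 and 3, and the line differences 8 for 22Rv1 minus LNCaP and 33 for 22Rv1 minus LNCaP95. Without TMM factors, lower downstream calls were 64, 150 and 17, with 42 higher in 22Rv1, and neighbour 3′ UTRs were higher in 52 for LNCaP and in 95, with 39 lower, for LNCaP95. With CPM above 2 in every library, lower downstream calls in 22Rv1 were 63, lower ratios 63 in LNCaP and 27 in 22Rv1, and neighbour 3′ UTRs higher in 22Rv1 were 2. With 1 read as the only filter the last count was 7. DESeq2 gave 64 lower downstream calls in 22Rv1, and 7 higher and 5 lower neighbour 3′ UTRs. CPSF1 sh1 alone gave 23 and 149 downstream calls in LNCaP95 and 9 and 11 in 22Rv1, 23 and 57 ratio calls in LNCaP95 and 3 and 3 in 22Rv1, and 63 lower neighbour 3′ UTRs in LNCaP, 19 and 35 in LNCaP95 and, by edgeR, 0 and 0 in 22Rv1, where 21 and 8 had an unadjusted p under 0.05 and DESeq2 with all libraries called 7 and 5. CPSF1 sh2 alone gave 20 higher ratios in LNCaP and 25 in 22Rv1, and 22 higher neighbour 3′ UTRs in LNCaP. With at least 1000 reads, downstream calls were 21 and 67, 18 and 88, and 6 higher in 22Rv1, ratio calls 19 and 16, 18 and 46, and 4 higher in 22Rv1, neighbour 3′ UTRs 15 and 10, 21 and 18, and 2 and 1, and line differences 7, 8 and 23. With Length under 5000 they were 0 and 5, 0 and 10, and 1 and 1, then 0 and 3, 0 and 6, and 0 and 1, then 2 and 3, 1 and 4, and 0 and 0, and line differences 1, 1 and 4. The share of downstream reads in cut regions differed between knockdown and control by −3.40 percentage points in LNCaP95 and −1.08 in 22Rv1, by −0.22 and 0.0034 with Length under 5000, and by 0.047 and 0.047 as a share of the 4 tables. Chosen after seeing the data, leaving out RNF141 gave −1.80 and −0.35, and leaving out RNF141 and RPS2 −1.80 and −0.35.

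Without 1 library at a time, higher downstream calls were 27 to 38, 39 to 52 and 14 to 25 (14 without 22Rv1 CTRL sh replicate 2), and lower ones 86 to 149, 198 to 233 and 23 to 44 (23 without 22Rv1 CTRL sh replicate 3). Higher ratios were 18 to 31, 36 to 49 and 5 to 16, with 18, 18 and 19 without LNCaP CTRL sh replicates 1, 2 and 3 and 9, 5 and 7 without those of 22Rv1; lower ones were 20 to 47, 92 to 125 and 9 to 18, with 20, 23 and 24 without those of LNCaP. Higher neighbour 3′ UTRs were 19 to 39, 36 to 64 and 2 to 10, with 21, 19 and 21 without the 3 LNCaP controls, 36 without LNCaP95 CTRL sh replicate 1, and 10, 2 and 2 without the 22Rv1 controls. Lower ones were 27 to 59, 43 to 84 and 0 to 5, with 27 without LNCaP CTRL sh replicate 1, 43 and 47 without LNCaP95 CTRL sh replicates 1 and 3, and changes of over 1.5 times without any of the 22Rv1 libraries. Line differences were 14 to 23 for LNCaP95 minus LNCaP, 6 to 17 for 22Rv1 minus LNCaP (9 and 6 without 22Rv1 CTRL sh replicates 1 and 3, and 7, 9 and 9 without the LNCaP controls) and 38 to 67 for 22Rv1 minus LNCaP95. The share differences were −2.42 to 2.97, −3.77 to −3.15 and −1.29 to −0.70.

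The replicate numbers were shared over groups but did not pair the libraries: correlations of the deviations of same-numbered libraries were −0.084 to 0.146, with 1 of 27 above 0.1. With the replicate number as a block, downstream calls were 37 and 125, 51 and 227, and 22 and 34, ratio calls 28 and 36, 45 and 116, and 13 and 12, neighbour 3′ UTRs 32 and 35, 54 and 68, and 4 and 2, and line differences 15, 13 and 48. Calls lost under the block were CATSPERB in LNCaP95, INCA1 in 22Rv1 and the CD4 line difference (adjusted p = 0.0522, 0.0840 and 0.0710 by edgeR).

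Named log2 fold changes turned sign in 23 cases. On the scale of the 4 tables, RPS2 was 0.37 in LNCaP and 0.011 in LNCaP95, ZBTB7A 0.69 and PRUNE 0.069 in LNCaP95, and PAN2 0.34, NOTCH2NL 0.12, HCFC1 0.27 and ARPC2 0.11 in 22Rv1. Without TMM factors, ZBTB7A was 0.094 in LNCaP95, and PAN2 0.10 and HCFC1 0.013 in 22Rv1. CPSF1 sh1 alone gave −0.042 for HCFC1 in LNCaP and −0.38 for CD4 in 22Rv1, and CPSF1 sh2 alone 0.46 for RPS2 in LNCaP. Without 1 library at a time, INCA1 in 22Rv1 ranged from −1.37 to 0.027 (without CTRL sh replicate 3) and HCFC1 from −0.47 to 0.13 (likewise). In LNCaP, HCFC1 ranged from −0.23 (without CPSF1 sh2 replicate 1) to 0.73, with −0.036 and −0.10 without CTRL sh replicates 2 and 3, RPS2 from −11.42 to 10.72 (without CPSF1 sh2 replicate 2 and CTRL sh replicate 2), PRUNE from −0.94 to 0.17 (without CTRL sh replicate 3) and CD4 from −3.91 to 1.03 (without CTRL sh replicate 1). CD4 in 22Rv1 ranged from −0.37 (without CPSF1 sh2 replicate 2) to 3.47. Depth limited the regions with 0 to 5 control reads, whose fold changes rest on few counts.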
